A study of Homo sapiens with 28 samples.

Results

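The sites described here are 750 genomic regions whose peaks ranked among the strongest in cells carrying an empty vector and dropped out of that top set when wild-type ARID1A or ARID1B was expressed. They were selected from the deposited peak lists in 3 steps. Each of the 28 lists, restricted to chromosomes 1 to 22 and X, was reduced to its 19433 most significant peaks, which is called the equal-length list below. Overlapping peaks of all lists were merged, and the 32972 regions touched by peaks of at least 2 lists were kept. The members are the regions touched by a peak in all 4 empty vector libraries and in none of the 4 wild-type libraries, 2.27% of all regions and 4.78% of the 15702 regions that all 4 empty vector libraries called. A region is called by a library when a peak of that library overlaps it by at least 1 bp. Because the empty vector and wild-type libraries chose the members, their values in those 8 libraries are a description and carry no test.

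The libraries are ATAC-seq of AN3CA, an established human endometrial carcinoma line, as the titles give it, whereas the series' design text describes CUT&Tag of BAF subunits and H3K27ac. All 13 groups are AN3CA cells, so the background genotype is common to controls and constructs. There are 4 libraries of Empty_vector and 2 of every other group, namely ARID1A_WT, ARID1B_WT and 10 altered forms. The labels describe ARID1A_CBR and ARID1A_delIDR1 as truncations, ARID1A_DBDmut as mutated in its ARID domain, ARID1A_DDX4 as a hybrid with a DDX4 disordered region (IDR), and ARID1B_S320_G327del as a mutant also named M2. ARID1A_AQGscramC1C2, ARID1A_Y42S, ARID1B_A457_G461del, ARID1B_Block13del and ARID1B_Block9del are known here by their titles only. The genotype field of those 10 libraries names the empty vector, in conflict with their titles, and they were grouped by title. The labels do not say whether replicates were separate cultures, so p-values measure the spread between these libraries, which may be technical. How the proteins were expressed, and at what level, is not given in the sources used here.

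ARID1A and ARID1B are mutually exclusive subunits of the canonical BAF complex, an ATP-dependent remodeler that slides and evicts nucleosomes and keeps many enhancers open. Both carry long intrinsically disordered regions and an ARID domain, which binds DNA. ARID1A is among the genes most often inactivated in endometrial carcinoma. ATAC-seq reads open DNA as the places where a transposase can insert, and a peak is a stretch with more insertions than the background estimated by the peak caller. Gene annotation and genome sequence of the build of these lists, hg19, were not used here, so sites are given by position alone.

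Only peak lists were analysed, so read depth is unknown. The lists held 19489 (ARID1A_Y42S 2) to 76589 peaks (ARID1A_WT 1). Each peak carries a fold enrichment over the caller's background and a −log10 p-value, both the authors' own values, and they serve here only for ranking and description inside one list. Peak names carry a date code, of which there are 6, labelled A to F here. Codes A and B each hold 1 library of Empty_vector, ARID1A_WT, ARID1A_DBDmut, ARID1A_delIDR1 and ARID1A_CBR. Code C holds Empty_vector 3 and 4, ARID1B_WT and ARID1B_S320_G327del. ARID1A_DDX4 (code D) and ARID1A_AQGscramC1C2 (code F) have a code to themselves, and code E holds the remaining 4 constructs. Construct and code cannot be told apart for codes D and F, and no construct of D, E or F has an empty vector library of its own code.

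The members were mostly weak peaks already in the empty vector cells. Their mean rank over the 4 Empty_vector lists had a median of 15678 of 19433, with quartiles of 14339 and 16708, and it ran from 4132 to 19125. Of the regions called by all 4 Empty_vector libraries, none of the 3807 with a mean rank better than 4000 was a member. Members made up 5 of 3975 regions (0.126%) at mean ranks of 4000 to 8000, 37 of 3817 (0.969%) up to 12000 and 110 of 1827 (6.02%) up to 14000. They made up 283 of 1525 (18.6%) from 14000 to 16000, 290 of 704 (41.2%) from 16000 to 18000 and 25 of 47 (53.2%) beyond. The strongest empty vector sites therefore contributed no member, and membership was concentrated near the end of the list, where a small change of rank changes a call.

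In the whole lists as deposited, 620 members (82.7%) still had a peak in all 4 wild-type libraries. A further 69 had one in 3 of them, 43 in 2, 12 in 1 and 6 in none. The best rank that a member reached in any wild-type whole list had a median of 22228, and for 165 members it lay within 1000 places of the cutoff. Sites next to the cutoff show how fine this line is. The member at chr19:14358515-14360527 ranked 19427 in Empty_vector 1, just inside the list. The member at chr8:55464314-55464669 ranked 19436 in ARID1A_WT 1, just outside it. The region at chr6:122812831-122813570 ranked 19427 in ARID1B_WT 1 and so is not a member, and neither is chr7:101149524-101151488, which all 4 Empty_vector whole lists hold but only 3 equal-length lists do.

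Position in the list was lower with both wild-type proteins in every library. To compare lists of unequal length, each region was given a percentile in each library, its place among the 32972 regions by its best −log10 p in the whole list, with regions lacking a peak tied at the bottom. The median percentile of the members was 52.5, 52.0, 53.1 and 52.8 in Empty_vector 1 to 4. It was 28.6 and 28.2 in ARID1A_WT and 23.3 and 22.5 in ARID1B_WT. All 4 empty vector medians lay above all 4 wild-type medians, which follows from the selection. Ranking by fold enrichment, which the rule did not use for calling but which comes from the same libraries, gave 62.7, 59.3, 58.1 and 62.9 in Empty_vector against 28.6 and 26.2 in ARID1A_WT and 27.5 and 25.8 in ARID1B_WT. Among the 15748 regions that all 28 whole lists hold, 311 of them members, the median percentile was 14.7 to 15.7 in Empty_vector and 7.09 to 8.20 in the wild-type libraries. Within that common set the members were thus near the bottom everywhere, and lower with the wild-type proteins.

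**Figure D1:**
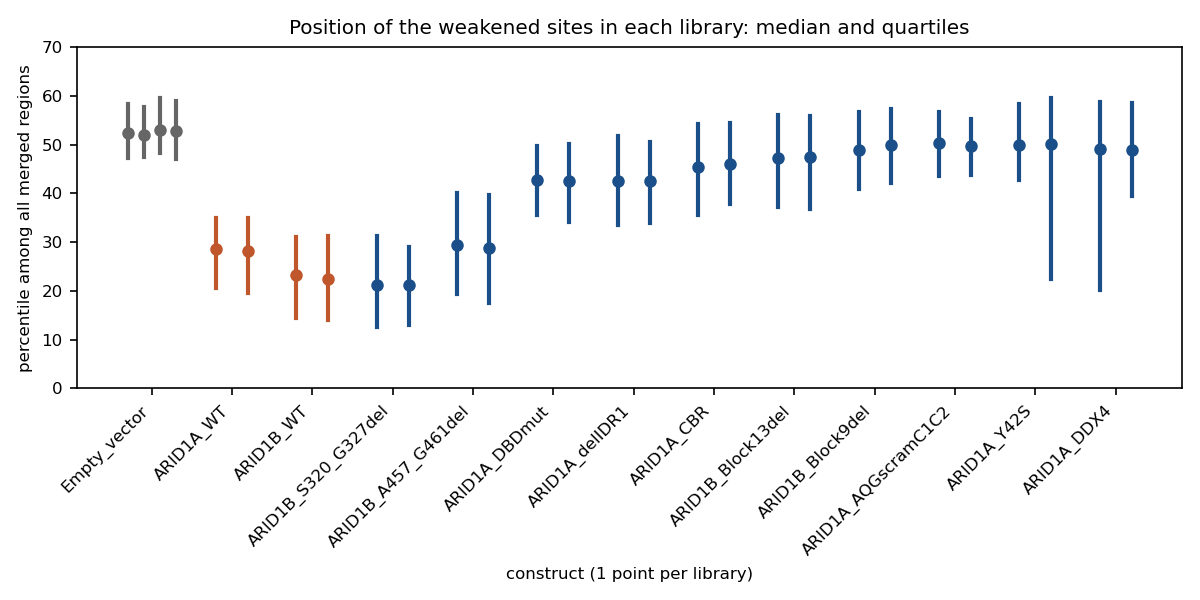
Median (point) and quartiles (line) of the percentile of the 750 members among all 32972 merged regions, 1 point per library, with Empty_vector in grey, wild-type in orange and altered constructs in blue. Empty_vector medians are 52.0 to 53.1, wild-type medians 22.5 to 28.6, and among the altered constructs ARID1B_S320_G327del (21.2 and 21.1) lies just below all 4 wild-type libraries and ARID1B_A457_G461del (29.4 and 28.7) just above them.

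Fold enrichment itself separated the groups less cleanly than rank. The median fold of members was 6.05, 5.49, 5.35 and 5.99 in Empty_vector 1 to 4, 4.55 and 4.40 in ARID1A_WT, and 5.15 and 5.34 in ARID1B_WT. Divided by the median fold of the regions that all 28 lists share, which sets each list on its own scale, the values were 1.04, 0.992, 0.839 and 0.957 in Empty_vector. The same ratio was 0.825 and 0.802 in ARID1A_WT and 0.843 and 0.828 in ARID1B_WT. Both ARID1A_WT libraries lay below both Empty_vector libraries of codes A and B. In code C, Empty_vector 3 fell between the ARID1B_WT libraries, so the description as weakened holds there by rank and not by this ratio. These medians cover only members with a peak in the whole list, which were 677 and 652 of the 750 in ARID1B_WT.

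An equal-length list is a ranking, so a peak that enters displaces another. Regions with the reverse pattern, present in all wild-type and absent from all empty vector equal-length lists, numbered 1905. When, as an alternative chosen after seeing the data, only peaks overlapping an empty vector peak were ranked, in lists of 19284 peaks, 205 regions met the rule, all of them members (27.3%). Under that ranking 223 members stayed out of every wild-type list, 358 were called by 1 or 2 wild-type libraries and 43 by all 4. The membership of most sites thus depended on which peaks were ranked.

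The 10 members with the best mean rank in Empty_vector are described first. They lie far from the cutoff on the empty vector side but not always on the other, since the chr10 site below ranked 19581 in ARID1B_WT 2 and the chr1 site 19549 in ARID1A_WT 2, both just past the cutoff. They are 586 to 2556 bp wide, and 8 of the 10 had a peak in all 4 wild-type whole lists. The first, chr10:73025390-73026685, had −log10 p-values of 116, 135, 22.4 and 33.2 in Empty_vector 1 to 4, at percentiles of 96.0, 95.1, 78.3 and 80.6. With ARID1A_WT they were 17.4 and 15.8, at percentiles of 20.3 and 33.7, and with ARID1B_WT 13.4 and 16.2, at 22.1 and 42.4. The site was among the highest of codes A and B in the empty vector, and no wild-type library reached the lowest empty vector percentile. Its fold enrichment was 3.89 and 3.71 in Empty_vector 1 and 2 and 2.86 and 3.05 in the ARID1A_WT libraries of the same codes. In code C the fold was 5.43 and 5.00 in Empty_vector 3 and 4 and 3.31 and 4.02 in ARID1B_WT.

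At this chr10 site the altered constructs spread widely. ARID1A_delIDR1 held percentiles of 66.9 and 62.2, ARID1A_CBR 64.7 and 58.6, ARID1A_AQGscramC1C2 62.8 and 68.6 and ARID1A_Y42S 75.4 and 73.9. ARID1A_DBDmut was lower, at 50.7 and 43.6, and ARID1B_Block13del and ARID1B_Block9del lower again, at 36.9 and 25.9 and at 30.8 and 33.5. No peak was listed in either library of ARID1B_A457_G461del or ARID1A_DDX4, nor in ARID1B_S320_G327del 1. The second ARID1B_S320_G327del library held a peak at a percentile of 7.66. Sites with no peak in the short ARID1A_DDX4 lists are tied at percentiles of 20.2 and 17.8, so only a value above these counts as a peak there.

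The member at chr8:129440114-129442354, 2241 bp wide, was similar. Its percentiles were 97.7, 96.9, 75.5 and 75.5 in Empty_vector 1 to 4, 27.9 and 24.0 in ARID1A_WT, and 13.5 and 10.2 in ARID1B_WT. ARID1A_delIDR1 stood at 85.0 and 86.4 and ARID1A_CBR at 76.7 and 54.8, against 31.1 and 40.4 with ARID1A_DBDmut. Both libraries of ARID1B_A457_G461del and ARID1A_DDX4 listed no peak there. Both ARID1A_delIDR1 libraries thus lay between the Empty_vector libraries of codes A and B and those of code C, and far above the ARID-domain mutant of their own codes.

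The member at chr17:46132734-46133659 had the least signal with the wild-type proteins among the first 5. Its −log10 p was 83.6, 80.1, 20.6 and 24.6 in Empty_vector. ARID1A_WT 1 listed 9.12 and ARID1B_WT 1 listed 8.27, and the second library of each wild-type protein listed no peak. ARID1A_delIDR1 (22.7 and 31.0), ARID1A_CBR (18.6 and 29.1), ARID1A_AQGscramC1C2 (19.4 and 27.2) and ARID1A_Y42S (12.0 and 6.20) all kept a peak. ARID1A_DBDmut also listed a peak in both libraries (18.2 and 10.5), outside the equal-length lists. No library of the 4 ARID1B deletions, nor of ARID1A_DDX4, listed one. The site at chr19:47287775-47288509 also had no peak in those same 10 libraries, while ARID1A_delIDR1 placed it at percentiles of 68.3 and 68.1. In contrast to the chr17 site, all 4 wild-type libraries listed a peak there, at percentiles of 16.3 to 26.2.

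Other leading members behaved differently. The site at chr9:34651555-34652783 was called by 19 of the 20 altered libraries, with percentiles of 59.4 to 79.7 in all altered libraries except ARID1B_S320_G327del 1, at 42.6. Its Empty_vector percentiles were 74.4, 71.3, 82.4 and 79.4, and its wild-type percentiles were 31.0 and 36.3 with ARID1A_WT and 29.4 and 39.0 with ARID1B_WT. Every altered library thus lay above all 4 wild-type libraries at this site. At chr9:13519216-13520787 the ARID1B block deletions lay above the ARID1A truncations. ARID1B_Block13del reached 67.9 and 70.1 and ARID1B_Block9del 74.7 and 72.3, while ARID1A_CBR stood at 19.9 and 31.3, ARID1A_delIDR1 at 52.1 and 35.4 and ARID1A_DBDmut at 36.0 and 36.3. Empty_vector held 66.0, 76.3, 77.1 and 73.5 at that site and the wild-type libraries 27.5 to 35.2.

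**Figure D2:**
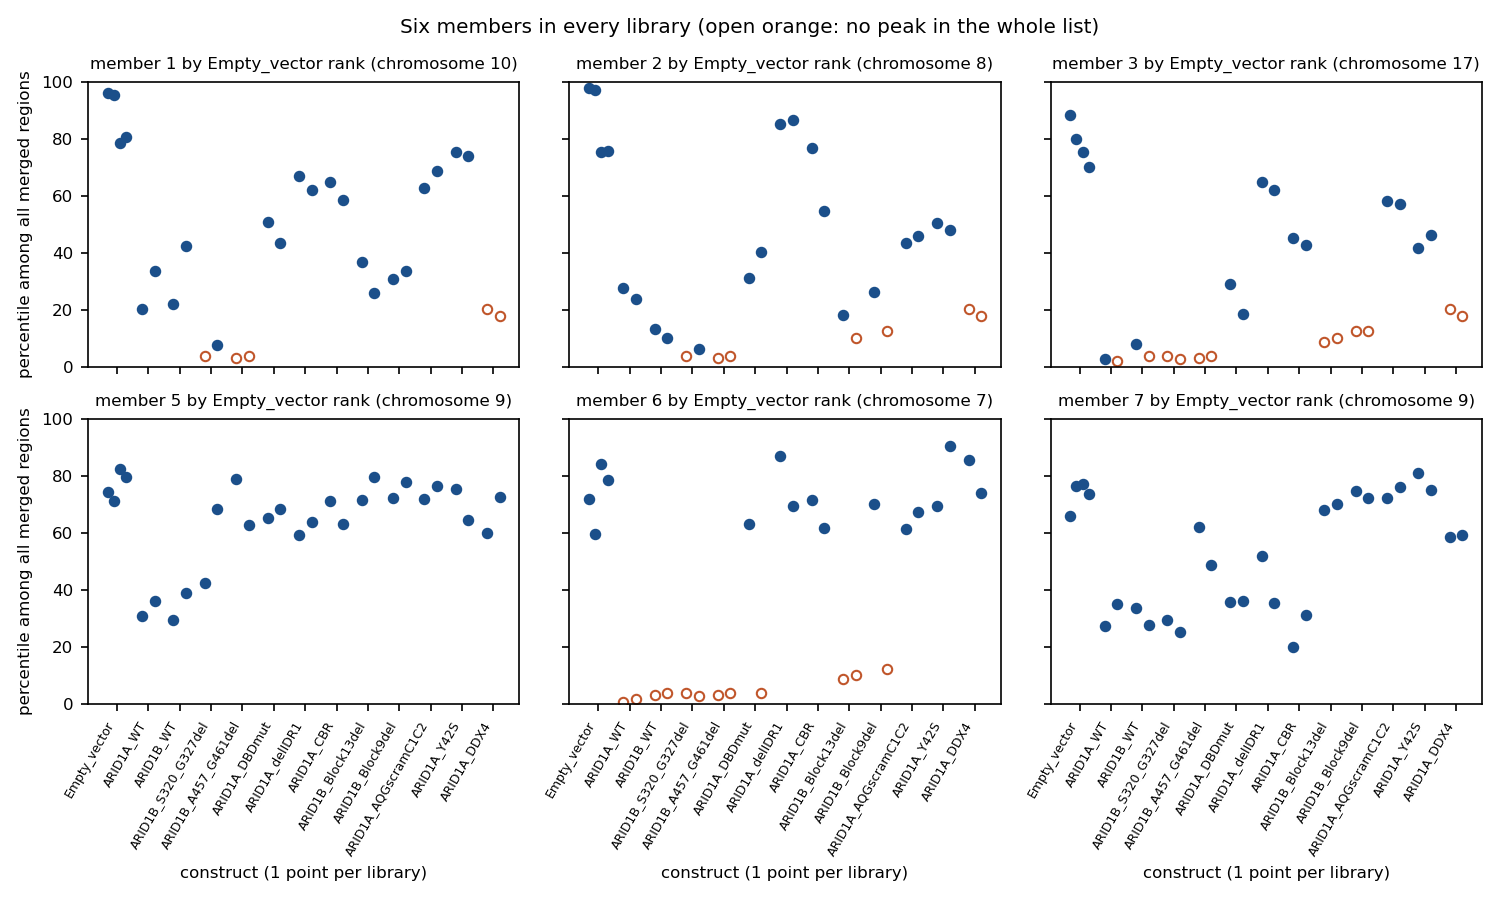
Percentile among all 32972 merged regions of 6 members in each library, by construct, with open orange points where the whole list holds no peak. Members 1, 2 and 3 lie above the wild-type libraries with ARID1A_delIDR1 and ARID1A_CBR and lack a peak with ARID1B_A457_G461del and ARID1A_DDX4, member 5 is high in nearly all altered constructs, member 6 has no peak in any wild-type library, and member 7 is high with the ARID1B block deletions.

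The remaining leading members were chr6:19734455-19737010, chr8:129881940-129882681 and chr1:17337366-17338957, called by 6, 17 and 15 of the 20 altered libraries, and chr7:105292688-105293273. The chr6 site stood at 80.2, 79.8, 80.1 and 72.0 in Empty_vector and was high only with ARID1A_AQGscramC1C2 (59.6 and 62.9) and ARID1A_Y42S (62.6 and 77.7), every other altered library lying at 49.8 or below. The chr1 site stood at 69.5, 67.4, 84.6 and 69.5 in Empty_vector. It reached 72.9 and 64.5 with ARID1B_Block9del and 68.5 in both libraries of ARID1A_AQGscramC1C2.

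Wild-type peaks were absent even at full length from 6 members, all of them narrow, at 306 to 662 bp. The first is chr7:105292688-105293273, with −log10 p of 50.3, 41.5, 26.8 and 31.3 in Empty_vector and fold of 5.78, 4.56, 7.73 and 6.52. Peaks were also listed there in both libraries of ARID1A_delIDR1 (39.3 and 36.2), ARID1A_CBR (31.4 and 41.8), ARID1A_AQGscramC1C2 (21.3 and 37.1), ARID1A_Y42S (21.8 and 24.2) and ARID1A_DDX4 (19.7 and 16.2). However, replicates of other constructs disagreed completely at this site. ARID1A_DBDmut 1 listed a −log10 p of 35.4 and ARID1B_Block9del 1 one of 24.8, while the second library of each listed no peak at all.

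The same switching was seen at the other sites without a wild-type peak. At chr11:117097082-117097716, ARID1B_A457_G461del 1 (25.5), ARID1B_Block13del 1 (27.5) and ARID1A_Y42S 1 (24.3) listed strong peaks by −log10 p, and the second library of each listed none. At chr3:169480813-169481118, ARID1A_DBDmut 1 listed 34.1 and ARID1A_DBDmut 2 none. The sites at chr3:141088651-141089304 and chr20:12550932-12551477 had peaks in ARID1B_Block9del 1 and not in ARID1B_Block9del 2. At chr15:40636686-40637347 the switch was between the libraries of ARID1A_Y42S and of ARID1A_DDX4. The absence of a listed peak at these sites was thus often not repeated in the second library. Over all members, 56 (7.47%) ranked within the first 12000 in 1 library of an altered construct and were missing from the whole list of the other, beside 2.94% of all regions, a limit chosen after seeing the data. ARID1A_Y42S gave 31 of them (4.13% of members beside 1.47% of all regions) and ARID1A_DDX4 19 (2.53% beside 0.943%). These constructs also have the shortest lists, whose part in this was not tested.

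The altered constructs differed widely in how many members they called in equal-length lists. The share of members was 7.73% and 5.07% in the libraries of ARID1B_S320_G327del, a mean of 6.40% ± 1.89 (SD, n = 2), and 21.1% and 20.7% in those of ARID1B_A457_G461del, a mean of 20.9% ± 0.283 (SD, n = 2). ARID1A_delIDR1 called 51.9% and 53.1%, ARID1A_DBDmut 54.8% and 54.1%, and ARID1A_CBR 58.5% and 64.4%. ARID1B_Block13del called 64.1% in both libraries, ARID1A_DDX4 64.5% and 66.9%, and ARID1A_Y42S 76.4% and 60.9%. The highest shares were 72.0% and 75.9% with ARID1B_Block9del and 80.4% and 82.5% with ARID1A_AQGscramC1C2. For scale, each of the 28 equal-length lists called 55.3% to 58.6% of all merged regions.

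In order of the mean share, neighbours often could not be parted. The 2 deletions at the low end were apart from each other and from every other construct by more than the range of their libraries. ARID1A_delIDR1 lay just under ARID1A_DBDmut, with 53.1% as its higher library against 54.1% as the lower one of ARID1A_DBDmut. The libraries of ARID1A_Y42S spanned those of ARID1B_Block13del, ARID1A_DDX4 and ARID1B_Block9del and overlapped ARID1A_CBR, and ARID1A_AQGscramC1C2 lay above all of them. These shares are scores over members chosen with results known, and no test was made of them.

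**Figure D3:**
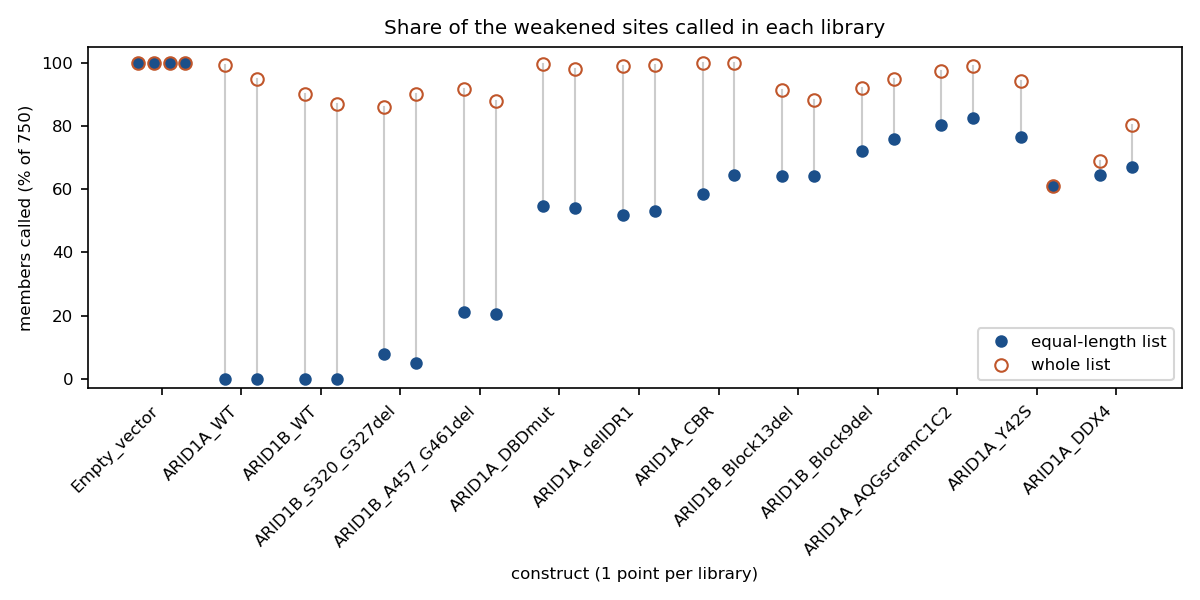
Share of the 750 members called in each library, in equal-length lists (filled) and in whole lists (open), by construct, with a grey line joining the points of a library. In equal-length lists the shares run from 5.07% (ARID1B_S320_G327del 2) to 82.5% (ARID1A_AQGscramC1C2 2) among altered libraries, and in whole lists from 60.9% (ARID1A_Y42S 2) to 100% (ARID1A_CBR 2).

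The order was different in the whole lists. ARID1A_CBR called 99.9% and 100% of members beside 84.8% and 89.6% of all regions, and ARID1A_delIDR1 98.9% and 99.3% beside 88.9% and 93.7%. ARID1B_S320_G327del, lowest in equal-length lists, called 85.9% and 90% beside 92.1% and 94.2% of all regions. Its members thus lay below the share of all regions and those of ARID1A_CBR above it. The lowest whole-list shares were those of the shortest lists, 60.9% beside 55.3% of all regions in ARID1A_Y42S 2, and 69.1% and 80.4% beside 59.5% and 64.4% in ARID1A_DDX4. Members with no peak in either whole list numbered 101 with ARID1A_DDX4, 60 with ARID1B_S320_G327del, 45 with ARID1B_A457_G461del, 2 with ARID1A_delIDR1 and 0 with ARID1A_CBR. The same count was not taken over all regions, and the lists differ in length. These counts thus cannot be read as a trait of the members. Both ARID1A_DDX4 libraries held members more often than all regions, by the shares above. The percentiles, which use the whole lists, gave medians of 21.2 and 21.1 with ARID1B_S320_G327del and 29.4 and 28.7 with ARID1B_A457_G461del. They were 42.4 to 42.7 in the 4 libraries of ARID1A_DBDmut and ARID1A_delIDR1, 45.4 and 46.1 with ARID1A_CBR and 47.3 in both ARID1B_Block13del libraries. The other 4 constructs stood at 48.9 to 50.4, under the Empty_vector range of 52.0 to 53.1.

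Because Empty_vector is at 100% and the wild type at 0% by selection, both were also scored on sites chosen without the library in question. An Empty_vector library called 78.0% ± 3.53 of the 929 to 1029 sites chosen without it (SD, n = 4, range 72.9% to 80.7%). ARID1A_WT libraries called 25.9% and 23.6% of the sites chosen without them, and ARID1B_WT libraries 13.6% and 14.3%. These are the levels against which the altered constructs can be read, although the replicate of each scored library still took part in the selection. On the Empty_vector sets, ARID1A_AQGscramC1C2 called 76.9% on average, inside the Empty_vector range, ARID1B_Block9del 70.5%, just under it, and ARID1A_delIDR1 49.2%. On the ARID1B_WT sets, ARID1B_A457_G461del called 24.4% on average, above both ARID1B_WT libraries, and ARID1B_S320_G327del 8.12%, below both. On the ARID1A_WT sets they called 25.2% and 8.07%. These library averages are descriptions as well.

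Single members were called by a median of 11 of the 20 altered libraries, with quartiles of 8 and 14. Most, 610, were called by 5 to 15, 96 by 16 or more and 41 by 1 to 4. These counts were not taken over other regions, and each equal-length list called 55.3% to 58.6% of all regions. They thus cannot be read as a trait of the members. Only chr1:235267359-235269010 and chr4:77719896-77725597, the widest member at 5702 bp, were called by all 20. The 3 members called by none were chr5:116120220-116121489, chr9:109625027-109627344 and chr16:22303025-22303771. The chr9 site has the worst mean rank of all members, at 19125, and 19 of the 20 altered whole lists hold it. The chr5 site ranked 8637 and 10869 in Empty_vector 1 and 2 and 18796 and 18600 in Empty_vector 3 and 4, so it ranked better in codes A and B than in code C.

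**Figure D4:**
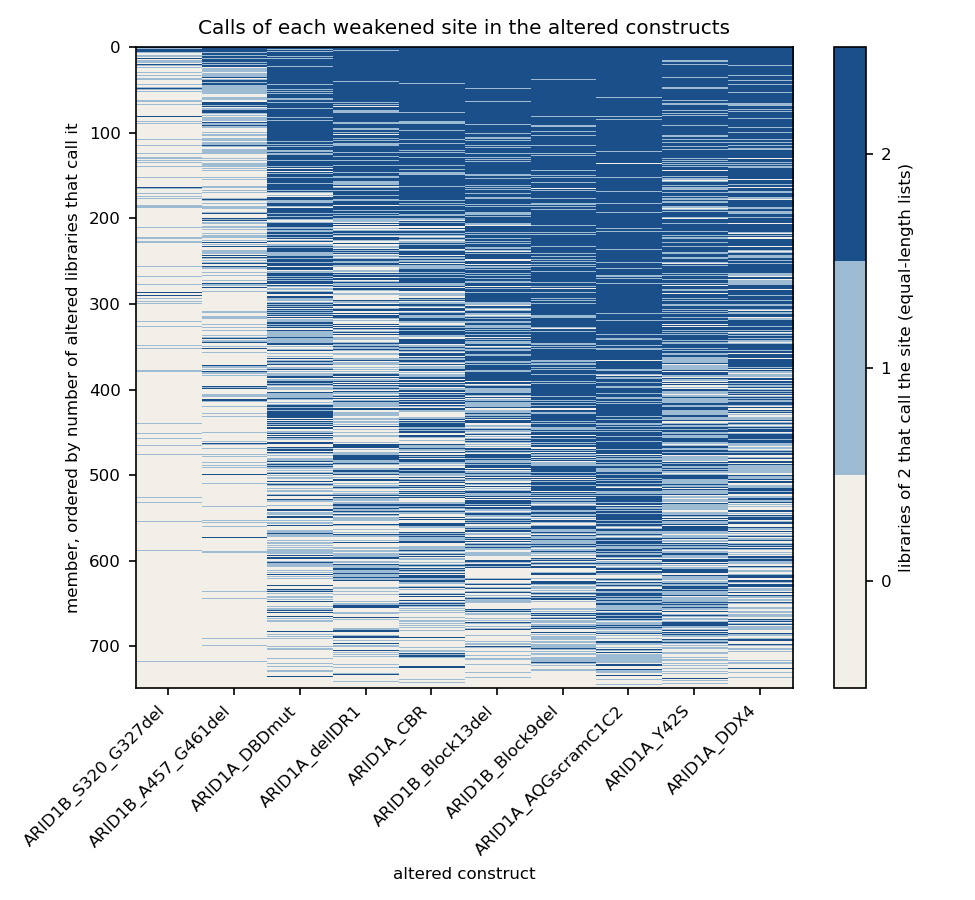
Number of libraries, of 2, that call each of the 750 members in equal-length lists, by altered construct, with members ordered by the number of altered libraries that call them. The columns of ARID1B_S320_G327del and ARID1B_A457_G461del are mostly pale (no call), and the other 8 constructs keep sets that overlap only in part.

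The sets called by both libraries of a construct overlapped less among the members than over all regions. All regions include 11502 that all 8 empty vector and wild-type libraries called, while most members ranked near the cutoff. The shares over all regions are thus not matched for rank, and the differences cannot be read as a trait of the members. Both libraries of ARID1A_DBDmut called 292 members and both of ARID1A_delIDR1 called 274, with 144 in common, 49.3% of the first set and 52.6% of the second, beside 88.02% and 89.7% over all regions. The libraries of 1 construct already differed at 233 members for ARID1A_DBDmut and 239 for ARID1A_delIDR1. Both ARID1A_DBDmut libraries and neither ARID1A_delIDR1 library called 60 members (8% beside 2.72% of all regions), and 51 showed the reverse (6.8% beside 2.48%). ARID1A_delIDR1 shared more with ARID1A_CBR, with which it had 213 members in common, 77.7% of its own set and 59.0% of the 361 of ARID1A_CBR, beside 90.1% and 89.4% over all regions. ARID1B_Block13del (374) and ARID1B_Block9del (459) had 299 in common, 79.9% and 65.1% of their sets, beside 91.8% and 89.8%. Across the proteins, all 4 libraries of ARID1B_Block13del and ARID1B_Block9del called 41 members that no library of ARID1A_delIDR1 or ARID1A_CBR called, 5.47% beside 1.71% of all regions, while 11 members showed the opposite pattern, 1.47% beside 1.68%. All 8 of these libraries called 107 members and none of them called 20. Date code moves with the protein in this comparison (A and B against E), and protein and code cannot be told apart.

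Members that were stronger in the empty vector were called more often by every altered construct. The members were grouped here by the Empty_vector ranks that the rule used. No share was taken over other regions of like rank, so the trend cannot be called particular to the members. Among the 188 members with the best mean Empty_vector ranks, ARID1A_DBDmut called 68.4%, against 40.2% among the 188 with the worst. The same shares were 90.4% against 69.7% for ARID1A_AQGscramC1C2, 81.6% against 62.0% for ARID1B_Block9del, 27.1% against 12.8% for ARID1B_A457_G461del and 10.4% against 2.93% for ARID1B_S320_G327del. The 5 members with mean ranks from 4000 to 8000 were called at 100% by ARID1A_AQGscramC1C2 and at 90% by ARID1A_delIDR1, ARID1A_CBR and ARID1A_Y42S, averaged over libraries. For ARID1A_DBDmut the share was 40%, and for ARID1B_Block13del, ARID1B_Block9del and ARID1A_DDX4 20%, below their shares among the 188.

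Differences between altered constructs were tested where both constructs share date codes, since the rule did not use those libraries. Each region was given a rank score per library, from 100 for the first place of the equal-length list down to nearly 0 for the last, and 0 where not called. The 6 contrasts were fitted with limma over all 32972 regions and 28 libraries, with Benjamini-Hochberg adjustment, at an adjusted p under 0.05. Member counts are read against the share of all regions that passed.

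The clearest result was that members scored lower with ARID1B_A457_G461del than with the block deletions of the same code. Against ARID1B_Block9del, 92 members were lower with ARID1B_A457_G461del, 12.3% of the members beside 2.84% of all regions, and 1 was higher beside 8.12%. The median difference over the 750 members was −11.5 points, with 617 members below 0 and 37 above, and 0 over all regions. Against ARID1B_Block13del, 65 members were lower, 8.67% beside 2.18%, and 0 were higher beside 7.48%. At an unadjusted limma p under 0.05, 2 members were higher there and 163 lower. The median difference over members was −8.69 points. Other regions called by all 4 Empty_vector libraries were also lower more often than all regions, at 545 of 14952 (3.65%) and 447 of 14952 (2.99%). Few of them were higher, at 99 (0.662%) and 62 (0.415%). Of the 1905 regions with the reverse pattern, none of them members, 65.6% and 62.6% were higher. The low counts of higher calls were thus not particular to the members. The contrasts share the ARID1B_A457_G461del libraries.

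These counts shrank with fewer libraries. Without ARID1B_A457_G461del 1, ARID1B_A457_G461del 2, ARID1B_Block9del 1 or ARID1B_Block9del 2 the first count was 37, 34, 53 and 53 members. Without ARID1B_A457_G461del 1 or 2 the second was 35 and 31. With only libraries of code E in the fit, 29 members were lower against ARID1B_Block9del (3.87% beside 1.20% of all regions) and 25 against ARID1B_Block13del (3.33% beside 0.892%). The fit of code E alone holds none of the libraries that the rule used. With peaks ranked by fold the counts were 30 (4% beside 1.39%) and 14 (1.87% beside 1.04%). With ranks over the whole lists, which separate the sites past the cutoff, they were 293 (39.1% beside 10.1%) and 197 (26.3% beside 6.18%).

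The 3 members with the smallest p in each of these contrasts were mostly at 0 with ARID1B_A457_G461del. At chr14:68750013-68752938 the rank score was 0 in both ARID1B_A457_G461del libraries and 54.4 and 51.5 in ARID1B_Block9del, a difference of −52.9 ± 8.11 points (SE, limma, Benjamini-Hochberg adjusted p = 8.81e-05). Empty_vector scored 48.8, 16.1, 38.5 and 31.8 at this site, so both ARID1B_Block9del libraries lay above all 4 empty vector libraries. At chr9:34591413-34592113 the score was 0 in both ARID1B_A457_G461del libraries and 16.47 and 15.96 in ARID1B_Block13del, a difference of −16.2 ± 2.40 points (SE, limma, Benjamini-Hochberg adjusted p = 6.50e-05). The others were chr19:4815510-4816244 and chr6:53275229-53275954 against ARID1B_Block9del, and chr17:48703243-48704013 and chr16:75297990-75300566 against ARID1B_Block13del. Their differences were −38.7, −45.3, −40.8 and −31.6 points, and none of the scores with ARID1B_A457_G461del exceeded 0.751. Ranked by fold, the calls at chr14:68750013-68752938 (limma, Benjamini-Hochberg adjusted p = 0.836), chr6:53275229-53275954 (0.0880) and chr16:75297990-75300566 (1) were lost.

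The block deletions could hardly be told apart at these sites. ARID1B_Block13del minus ARID1B_Block9del gave 1 member higher beside 0.343% of all regions and 1 lower beside 0.179%, with a median difference of −1.21 points over the members. The higher one was again chr9:34591413-34592113, with scores of 16.47 and 15.96 in ARID1B_Block13del and 7.31 and 0 in ARID1B_Block9del (limma, Benjamini-Hochberg adjusted p = 0.0157). It lost its call without ARID1B_Block9del 2 (0.223), with libraries of code E only (0.488), whole-list ranks (0.908), fold ranking (0.827) and only regions called by either construct (0.1005). The lower one was chr19:10691722-10692272, with 0 and 4.70 against 26.5 and 34.5 (limma, Benjamini-Hochberg adjusted p = 0.0387). It lost its call without any 1 of the 4 libraries, at adjusted p of 0.0555 to 0.246. The third by p, chr11:3185683-3186806, differed by −20.3 ± 5.11 points and did not pass (limma, Benjamini-Hochberg adjusted p = 0.111).

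Among the ARID1A forms, members were lower more often than all regions with the ARID-domain mutant compared with ARID1A_CBR. In the main fit they were closer to the share of all regions in the other contrasts. ARID1A_DBDmut minus ARID1A_CBR gave 28 members lower, 3.73% beside 2.04% of all regions, and 2 higher beside 1.7%. The median difference over members was −1.33 points. ARID1A_DBDmut minus ARID1A_delIDR1 gave 13 lower (1.73%) beside 1.12%, and 2 higher beside 0.789%, with a median difference of 0, 330 members below 0 and 317 above. With whole-list ranks it gave 13 lower, 1.73% beside 1.89%. ARID1A_delIDR1 minus ARID1A_CBR gave 10 lower (1.33%) beside 1.01% and 6 higher (0.8%) beside 1.15%. The members' shares in the last contrast are near those of all regions in both directions. Of the other regions called by all 4 Empty_vector libraries, 0.508%, 0.140% and 0.187% were lower in the contrasts above, in the same order. The shares higher were 0.823%, 0.415% and 0.161%. Members were thus lower more often than those regions in each contrast. In ARID1A_delIDR1 minus ARID1A_CBR they were also higher more often, at 0.8% beside 0.161%. Those regions were not matched for rank, so these differences cannot be read as a trait of the members.

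Libraries of these 3 constructs share a code by replicate number. The main fit did not use this. With the replicate number as a block, 41 members were lower with ARID1A_DBDmut than with ARID1A_CBR (5.47% beside 2.26% of all regions). Higher there were 4, beside 1.81%. ARID1A_DBDmut minus ARID1A_delIDR1 gave 21 lower (2.8% beside 1.29%) and 3 higher beside 0.907%. ARID1A_delIDR1 minus ARID1A_CBR gave 15 lower (2% beside 1.09%) and 10 higher beside 1.17%. With the block, the share lower was thus above that of all regions in each contrast. Without ARID1A_DBDmut 1, ARID1A_DBDmut 2 or ARID1A_CBR 1 the count of 28 became 12, 11 and 15. The count of 13 became 6 without either ARID1A_DBDmut library. In the last contrast the 10 lower members became 3 and 6 without ARID1A_delIDR1 1 and 2, and the 6 higher became 2 and 10, and 3 without ARID1A_CBR 2. With peaks ranked by fold, 3 members were lower with ARID1A_DBDmut than with ARID1A_CBR (0.4% beside 0.391%), so that count depended on ranking by −log10 p.

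**Figure D5:**
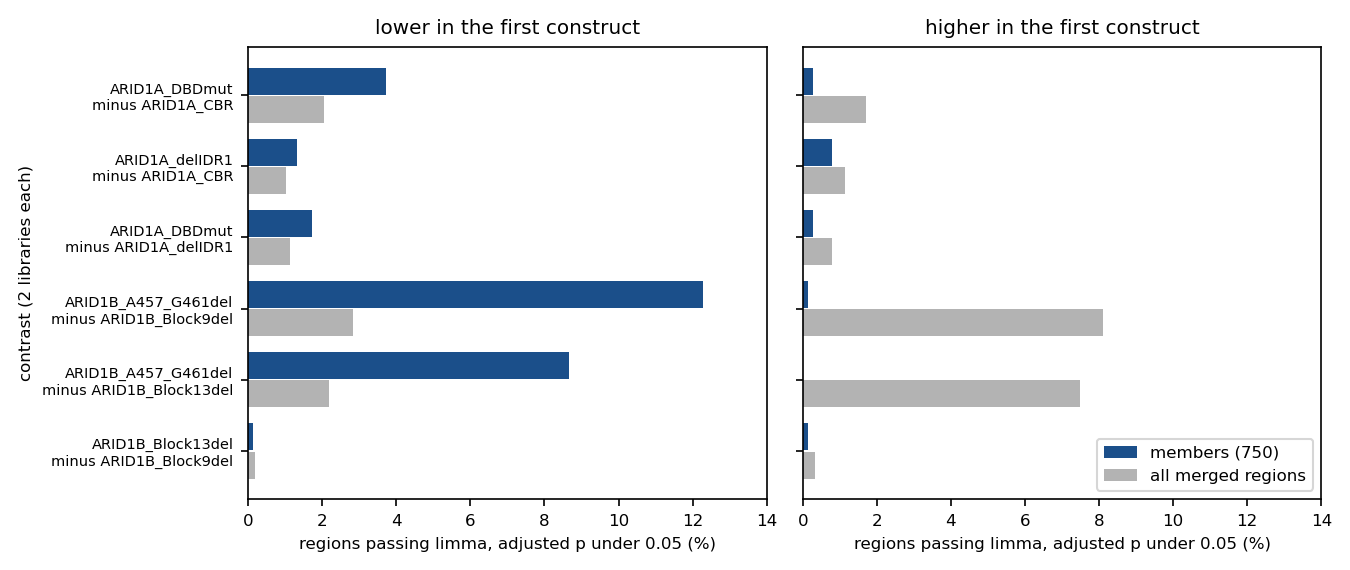
Share of the 750 members (blue) and of all 32972 regions (grey) that passed limma at an adjusted p under 0.05 in each contrast, lower (left) or higher (right) in the first construct. The members exceed all regions most in the 2 ARID1B_A457_G461del contrasts, at 12.3% beside 2.84% and 8.67% beside 2.18% lower.

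The leading sites of these contrasts changed between presence and absence in the equal-length lists. At chr8:129440114-129442354 the rank score was 0 in both ARID1A_DBDmut libraries and 74.6 and 76.9 in ARID1A_delIDR1, a difference of −75.8 ± 11.4 points (SE, limma, Benjamini-Hochberg adjusted p = 6.12e-04). At chr6:141398667-141399308 it was 0 in both ARID1A_DBDmut libraries and 48.0 and 46.8 in ARID1A_CBR (limma, Benjamini-Hochberg adjusted p = 9.13e-05), above the 5.56 to 28.02 of Empty_vector. With only libraries of codes A and B in the fit neither passed (limma, Benjamini-Hochberg adjusted p = 0.0584 and 0.0563). At chr5:55860096-55861818, ARID1A_CBR scored 45.6 and 34.9, ARID1A_delIDR1 1.94 and 2.52 and ARID1A_DBDmut 0 in both, so this member was 1 of the 3 leading sites in both contrasts with ARID1A_CBR. The others with ARID1A_CBR were chr3:149654625-149655187 (0 with ARID1A_DBDmut, 46.1 and 32.7 with ARID1A_CBR) and chr9:14418859-14420267 (0.448 and 0 with ARID1A_delIDR1, 42.9 and 42.6 with ARID1A_CBR).

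A member moved the other way at chr19:17618688-17619244. ARID1A_delIDR1 scored 44.6 and 43.0 there, ARID1A_CBR 0 in both libraries and ARID1A_DBDmut 14.5 and 7.53. The difference from ARID1A_CBR was 43.8 ± 5.46 points (SE, limma, Benjamini-Hochberg adjusted p = 5.18e-05), and Empty_vector scored 40.4, 34.3, 29.4 and 18.9. ARID1A_delIDR1 thus lay above all 4 empty vector libraries and ARID1A_CBR below them. At chr17:46132734-46133659, described above, the difference of ARID1A_DBDmut from ARID1A_delIDR1 was −37.8 ± 6.49 points (SE, limma, Benjamini-Hochberg adjusted p = 0.00204). Ranked by fold, each of these 7 ARID1A sites lost its call, at adjusted p of 0.281 to 1.

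The members were narrow for regions open in the empty vector. Width is that of the region merged over all lists. By the rule, no wild-type peak of an equal-length list could widen a member. The comparison regions were not matched for rank, so the width difference may come in part from the selection. Their median width was 843.5 bp, with quartiles of 666 and 1402 bp, against 1441 bp in the other 14952 regions called by all 4 Empty_vector libraries and 977 bp over all regions. Of the regions those 4 libraries called, members made up 20.4% of those under 600 bp, 10.5% of those from 600 to under 1000 bp, 2.34% from 1000 to under 2000 bp and 2.63% of 2000 bp or more. Wide members were kept unequally by the constructs. ARID1A_Y42S called 88.1% and ARID1A_DDX4 89.9% of the 84 members of 2000 bp or more, on average over their libraries, and 47.8% and 44.5% of the 136 under 600 bp. ARID1A_delIDR1 did not show this, at 42.3% and 51.8%, and its share was highest, at 60.9%, from 600 to under 1000 bp. The shares by width were not taken over other regions, so they cannot be called particular to the members. The median length that the peaks of ARID1A_Y42S 2 and ARID1A_DDX4 covered in a member, 327.5 to 342 bp, was the lowest of all libraries, and the part of this in the width pattern was not tested.

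Members lay on all chromosomes analysed. Their share of all regions ran from 1.42% on chromosome 18 (7 members) to 3.37% on chromosome 9 (47 members), and chromosome 1 held the most, 75. Relative to regions called by all 4 Empty_vector libraries, chromosome 9 (7.14%) and chromosome 20 (6.30%) were highest.

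Another merged region lay within 5 kb of 30.4% of the members and of 16.5% of the other regions called by all 4 Empty_vector libraries. A region called by all 4 wild-type and no empty vector library lay within 5 kb of 21 members (2.8%) and of 0.555% of those other regions. Within 50 kb the shares were 15.2% and 11.4%. Some members were thus close to sites that moved the other way, although for most the nearest such site was far, at a median distance of 319 kb. The other regions were wider, as given above, and were matched neither for width nor for rank. The closeness thus cannot be called particular to the members. Pairs of members within 20 kb numbered 15 and held 30 members, and no group was larger. At chr10:122650099-122651689 and chr10:122656274-122657283 both members of a pair were called by few altered libraries, 5 and 2 of 20, all of them ARID1A_delIDR1, ARID1A_CBR or ARID1A_Y42S. The chr3:169480813-169481118 site without wild-type peaks lay in a 2495 bp span with chr3:169482126-169483307, which had a peak in all 4 wild-type whole lists.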

How the data were processed

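The data were 28 broadPeak lists of AN3CA ATAC-seq, 1 per library. The submitters' processing notes list bcl2fastq, Bowtie2 (as version 2.29), Picard 2.8.0, SAMtools 0.1.19, MACS2 and the hg19 build. Peak caller options and any cut-site shift: not given in the sources used here. The deposited columns used were the fold enrichment (a ratio over the caller's background), the −log10 p-value and the −log10 q-value, whose smallest value per list was 3.00 to 3.03, while the deposited score was only inspected. Depth is unknown, so no counting interval is given.

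Regions, calls, ranks and percentiles were computed with Python 3.11.15, numpy 2.4.6 and pandas 2.3.3, and figures with matplotlib 3.10.9. Rank scores were fitted with limma 3.58.1 (R 4.3.3; lmFit, contrasts.fit, eBayes with trend and robust) on 13 construct means in 28 libraries, with Benjamini-Hochberg adjustment over 32972 regions, and the code was tested on simulated data. Named regions are the 10 best by mean Empty_vector rank, those in no wild-type whole list, the 3 smallest p per contrast and those nearest the cutoff. Others, such as those called by all or no altered library and the clustered pairs, were chosen after their values were seen. The members, lists and tests were chosen with earlier results of these data known. Gene lists and markers listed in the plan need an hg19 annotation and were not used here.

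Libraries of codes A and B share their code by replicate number, per the peak names in the deposited files. The main fit did not use this pairing, which entered only as the replicate block among the alternatives. Replicate differences correlated by −0.0281 to 0.208 over the 10 pairs of constructs in A and B, with 3 of 10 over 0.1. Alternatives were other list lengths, a 50% overlap, fold ranking, a region filter, libraries of the same codes only, the replicate block, eBayes without trend and leaving out libraries.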

Additional observations from a re-analysis of the deposited data

Results flagged for a closer look

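In 2 of 36 sets of 4 values checked, a single value stood far from the other 3 relative to the range. Chance alone would do this in about 1 in 20 sets if the values were independent and drawn alike. The 2 sets are Empty_vector values from codes A, B and C at members chosen with those libraries, so that rate is only a rough guide. Empty_vector 4 gave a percentile of 72.0 at chr6:19734455-19737010, where the other Empty_vector libraries gave 79.8 to 80.2. Empty_vector 3 gave 84.6 at chr1:17337366-17338957, where the others gave 67.4 to 69.5.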

How the results depend on the processing

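The causes of the changes below were not tested. The 750 members became 119 with lists of 9716 peaks, 79 with whole lists, 332 when a peak had to cover 50% of a region, 2278 with codes A and B and ARID1A_WT only, 3106 with code C and ARID1B_WT only, and 205 when only peaks shared with Empty_vector were ranked. They were 643 with fold ranking and became 868 to 1029 with 1 library left out of the rule. Mean shares of members called, in the order ARID1B_S320_G327del, ARID1B_A457_G461del, ARID1A_DBDmut, ARID1A_delIDR1, ARID1A_CBR, ARID1B_Block13del, ARID1B_Block9del, ARID1A_AQGscramC1C2, ARID1A_Y42S and ARID1A_DDX4, were 0.267%, 0.267%, 0.0667%, 0.667%, 1.73%, 2.47%, 2.47%, 1.07%, 5.8% and 5.73% with the shorter lists, and 3.13%, 11.5%, 48.1%, 41.9%, 56.2%, 35.3%, 51.5%, 65.8%, 29.5% and 17.5% with the 50% overlap. Without ARID1A_Y42S, whose change was within its replicate spread in both cases, they were 87.9%, 89.9%, 98.9%, 99.1%, 99.9%, 89.9%, 93.5%, 98.3% and 74.7% in whole lists and 21.9%, 35.5%, 46.4%, 47.7%, 47.1%, 57.3%, 64.1%, 62.7% and 60.3% with fold ranking. Leaving out 1 library gave 5.07% to 8.50%, 18.4% to 26.0%, 49.8% to 63.0%, 46.5% to 58.1%, 55.2% to 65.7%, 57.6% to 68.1%, 67.5% to 76.6%, 74.8% to 84.0%, 60.9% to 76.4% and 59.3% to 68.7% in the full order.

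Counts of members passing limma moved as follows. ARID1A_DBDmut minus ARID1A_CBR gave 5 higher with whole-list ranks, 1 with fold ranking, 4 with libraries of the same codes and 4 with the replicate block, and 3 lower with fold ranking. ARID1A_delIDR1 minus ARID1A_CBR gave 1 higher with whole-list ranks, 2 with fold ranking and 10 with the replicate block, and 5 and 0 lower with whole-list and fold ranks. ARID1A_DBDmut minus ARID1A_delIDR1 gave 5 and 1 higher with whole-list and fold ranks, and 5 lower with fold ranking and 21 with the replicate block. ARID1B_A457_G461del minus ARID1B_Block9del gave 2, 0 and 0 higher and 293, 30 and 29 lower with whole-list ranks, fold ranks and the same codes. ARID1B_A457_G461del minus ARID1B_Block13del gave 2 and 1 higher with whole-list and fold ranks, and 197, 14 and 25 lower with whole-list ranks, fold ranks and the same codes. ARID1B_Block13del minus ARID1B_Block9del gave 0 higher with fold ranks, 0 with only regions called by either construct and 2 with the replicate block, and 5, 3 and 3 lower with whole-list ranks, fold ranks and the same codes. In code E the numbers do not pair libraries, with correlations of −0.0630 to 0.0424 in 6 pairs, and the replicate block gave 104 and 76 members lower with ARID1B_A457_G461del. Leaving out 1 library gave, for higher and lower in this order of contrasts, 0 to 1 and 11 to 24, 2 to 10 and 3 to 11, 0 to 1 and 6 to 15, 0 to 1 and 34 to 53, 0 to 1 and 31 to 51, and 0 to 2 and 0 to 4. Of 180 repeats over the 18 named sites of the contrasts, 151 kept their side of the threshold, 28 lost the call, 1 gained it and 0 reversed.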

Other observations

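Loss of the members and appearance of the 1905 regions with the reverse pattern did not go together in every altered construct. ARID1A_CBR called 58.5% and 64.4% of the members and 19.5% and 19.1% of the reverse regions, and ARID1B_Block13del 64.1% in both libraries and 32.5% and 29.6%. ARID1B_Block9del, with 72.0% and 75.9% of the members, called 2.83% and 4.04% of the reverse regions. ARID1A_DBDmut called 48.6% and 45.3% of the reverse regions and ARID1A_delIDR1 43.5% and 45.9%, beside 54.8% and 54.1% and 51.9% and 53.1% of the members. ARID1A_DDX4, which called 64.5% and 66.9% of the members, much as ARID1B_Block13del did, called 7.87% and 6.61% of the reverse regions. In lists of equal length the measures are not independent.

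No library of an altered ARID1B construct called 61 members (8.13%), beside 10.5% of all regions and 0.234% of the other regions that all 4 Empty_vector libraries called. The pair of members at chr17:41755028-41755693 and chr17:41771623-41772227 lay 5.43 kb and 22.03 kb from a reverse region, and 13 and 17 of the 20 altered libraries called them.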
